A study of Caenorhabditis elegans with 2 samples.

Results

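Of the 1346 peaks of the conservative list, 383 were autosomal peaks at the promoter of a single protein-coding gene. They were chosen by position alone: the summit lay on a chromosome other than X, within 500 bp of an annotated transcription start site (TSS) of exactly 1 protein-coding gene. The signal, the sequence, the replicate and the side of the TSS were not used. The conservative list holds peaks of both replicates together that passed a threshold on the irreproducible discovery rate (IDR), which scores how well the ranks of a peak match between replicates, and the signal is the peak caller's value as deposited, whose scale is not stated. The 383 peaks reached 343 of 17242 autosomal protein-coding genes, which is 1.99%. They come from chromatin immunoprecipitation followed by sequencing (ChIP-seq) of C06A6.2, which was assayed as a transcription factor in whole Caenorhabditis elegans. Both samples, biological replicates 1 and 2 of 1 group, were young adults aged 67 hours that had been synchronised by starving L1 larvae after bleaching. They were strain OP810, in which the transgene wgIs810 supplies C06A6.2 fused to TY1, EGFP and 3xFLAG together with unc-119(+) in an unc-119 (tm4063) background, and chromatin was precipitated with an antibody to GFP. The tagged protein was expressed from an added transgene, the worms were whole, and no untagged strain or input library was analysed here (the deposited file descriptions name a further input shared by both replicates but not its kind), so a tissue cannot be assigned and signal that does not depend on the tag cannot be told apart.

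A promoter is the stretch of DNA next to a transcription start site where transcription factors and RNA polymerase assemble. In C. elegans the leader of most messenger RNAs is replaced by trans-splicing, so that many annotated 5′ ends lie downstream of the place where transcription begins. Neighbouring genes often share a promoter or lie in operons, and the peaks described here are those for which only 1 coding gene was within reach. A ChIP-seq peak marks where the tagged protein, or chromatin linked to it, was recovered; it does not show that the gene is regulated.

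The strongest member, and 4 of the 12 of highest signal, lay on copies of 1 repeated sequence. Coordinates are for WBcel235 (the assembly also named ce11), the genome sequence is from RefSeq, and each run below is the 151 bases centred on the deposited summit, 5′ to 3′, on the strand of the gene, on which the shared part reads in 1 direction at all 4. Capitals mark letters inside a word of 24 letters that another of 8 related member peaks also holds. They are shown because peaks upstream of 4 different genes carry almost the same letters.
mtcu-2: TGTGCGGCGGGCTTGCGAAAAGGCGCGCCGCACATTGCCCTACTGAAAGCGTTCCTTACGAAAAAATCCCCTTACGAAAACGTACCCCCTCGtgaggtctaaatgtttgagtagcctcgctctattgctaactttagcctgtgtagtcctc
F44E7.4: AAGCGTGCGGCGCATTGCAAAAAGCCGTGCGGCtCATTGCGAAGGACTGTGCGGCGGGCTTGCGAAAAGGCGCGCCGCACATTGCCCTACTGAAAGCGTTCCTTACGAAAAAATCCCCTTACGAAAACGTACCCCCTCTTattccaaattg
npp-18: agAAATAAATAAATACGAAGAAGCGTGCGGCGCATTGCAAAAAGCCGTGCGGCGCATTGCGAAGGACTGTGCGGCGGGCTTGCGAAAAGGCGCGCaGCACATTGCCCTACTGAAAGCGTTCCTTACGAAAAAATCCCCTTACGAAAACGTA
unc-85: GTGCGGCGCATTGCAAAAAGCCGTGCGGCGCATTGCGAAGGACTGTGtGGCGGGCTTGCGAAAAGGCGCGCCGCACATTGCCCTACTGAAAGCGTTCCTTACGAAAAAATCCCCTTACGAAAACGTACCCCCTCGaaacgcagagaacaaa
The runs are chrII:10033606-10033756, minus strand; chrV:5777098-5777248, minus strand; chrIII:13296384-13296534, plus strand; and chrII:4701664-4701814, plus strand.

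The peak upstream of mtcu-2, which encodes a protein of tRNA modification, had the highest signal of the conservative list, 1433. In this and all later pairs, the values for replicates 1 and 2 come from their ranked lists, here 657 and 780.2. Its summit lay 468 bp upstream of the TSS, inside an intron of the neighbouring gene. The F44E7.4 peak, 220 bp upstream of its TSS, had a signal of 672 (330.2 and 337). The npp-18 peak, 394 bp upstream of a gene for a nucleoporin, had 608 (267 and 332), and the unc-85 peak, 330 bp upstream of a gene for a histone chaperone of the Asf1 family, had 492 (192 and 303). The other 4 members with the sequence were at F09E5.8, mec-6, which encodes a protein needed by the touch-receptor channel, set-25, which encodes a histone H3 lysine 9 methyltransferase, and Y48G10A.2. All 8 were in both replicates' own thresholded lists, with signals from 171 to 1433 and a median of 435, against a median of 89.3 over all 383. The set was assembled after the signals were seen, so its high signals are a description.

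The same sequence was found at 19 places in the 6 nuclear chromosomes, counting places with at least 20 of the shared 24-letter words. Of these, 14 carried a conservative peak: the 8 members, 5 autosomal peaks with no TSS in reach and 1 that reached more than 1 gene. One of the 5 was at vps-39, 505 bp from the TSS and so just outside the 500 bp limit, with a signal of 725. In 8 cases 2 copies lay 1183 to 3896 bp apart and pointed in opposite directions. The set-25 and npp-18 peaks were such a pair, 3252 bp apart in the 3762 bp between these divergent genes. Both copies carried a peak in 6 pairs, and neither did in 2 pairs. Within a pair the signals differed by as much as 2.87 times, between the member at mtcu-2 and the copy 1184 bp away, which had 499.

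Copies with and without a peak also differed in length and in the share of nearby words that occur once in the genome, though the ranges of that share overlap. Shared words up to 300 bp apart were joined into 1 place, which is what a copy means in these counts. The 14 with a peak spanned 153 to 400 bp, and the 5 without spanned 74 to 150 bp. The shared words came from the summit windows of the 8 members, which are among the 14. This difference in length is therefore partly set by that choice. The longest, at unc-85 (400 bp) and vps-39 (388 bp), held 191 and 203 shared words, more than the 136 distinct ones. They therefore hold part of the sequence more than once, and the others with a peak spanned 153 to 158 bp. Within 150 bp of the shared stretch, 26.3% to 50.9% of the 24-letter words occurred once in the genome at copies with a peak, with a median of 37.1%, and 0% to 36.4% at copies without, with a median of 6.27%. No summit of either replicate's ranked list lay within 150 bp of the 5 copies without a peak. No source used here says how reads that match several places were treated, so which copy each read came from is uncertain, and the part that read placement plays in these signals was not tested.

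**Figure D1:**
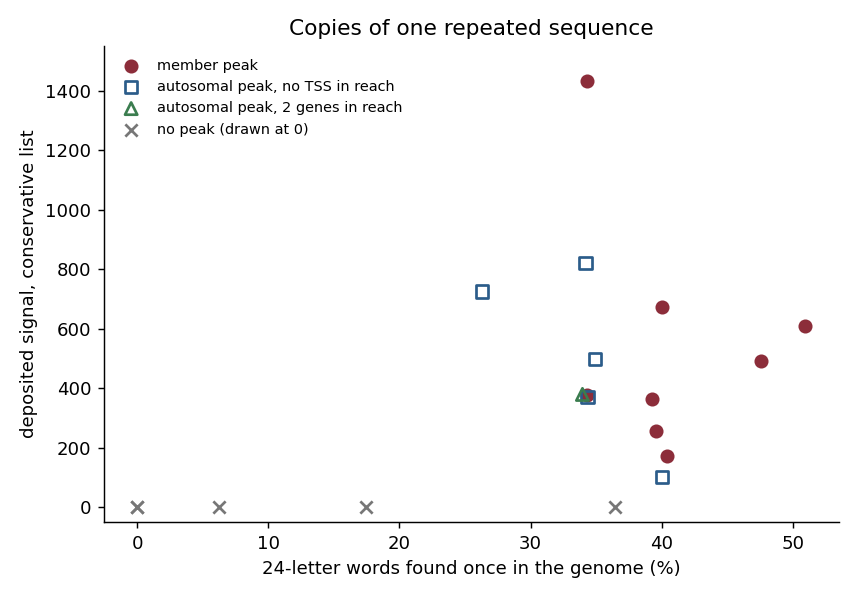
Deposited signal in the conservative list (vertical axis) of the 19 copies of the repeated sequence against the share of 24-letter words within 150 bp that occur once in the genome (horizontal axis, %). Filled circles are the 8 member peaks, open squares the 5 autosomal peaks with no TSS in reach, the open triangle the peak that reached more than 1 gene, and crosses the 5 copies without a peak, drawn at 0, of which 2 lie on top of each other at 0%.

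Repeated sequence lay under more of the strongest members than of the rest. In 30 of the 383 members (7.83%, 95% Wilson interval 5.54 to 11.0) more than 50% of the 24-letter words of the summit window occurred at more than 1 place, while 304 had no repeated word. The 30 included 6 of the 12 members of highest signal, 17 of the first 100 (17%, 10.9 to 25.5) and 13 of the other 283 (4.59%, 2.70 to 7.70). The share was 8.92% (6.85 to 11.5) among the 572 autosomal peaks with no TSS in reach and 7.26% (3.87 to 13.2) among the 124 that reached more than 1 gene, so the intervals of all 3 classes overlap. The other repeats were less regular: 7 members shared a sequence found at 61 places, 12 of them with a peak, and had signals from 2.40 to 182. The lowest was a second row of the stronger cacn-1 peak, a kind of row described below, and without it the signals began at 70.5 (tars-1). Another sequence, at 46 places of which 10 had a peak, was shared by the summit windows of the members at eel-1, rps-24, atad-3 and ttll-4, with signals from 97.0 to 307, and lay within 150 bp of the summit at cpt-2 (103.9). The peak at K08F11.1 (533; 275 and 267), 460 bp downstream of the TSS and between genes, had 85.2% repeated words, and the one at mog-4 had 63.3%.

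Sequences without repeats also stood among the strongest members. The runs below are the 151 bases around the summits of 3 such peaks on the strand of the gene. They are shown because they belong to the strongest members with no repeated word, and capitals mark the words CGCGCA or GGCGCA, the word GACGCA and the repeat GAGAGA, whose frequency is described further on.
Y22D7AL.10: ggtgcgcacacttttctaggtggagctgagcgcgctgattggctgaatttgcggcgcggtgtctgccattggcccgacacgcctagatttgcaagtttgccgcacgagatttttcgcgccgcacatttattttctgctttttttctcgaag
rpl-3: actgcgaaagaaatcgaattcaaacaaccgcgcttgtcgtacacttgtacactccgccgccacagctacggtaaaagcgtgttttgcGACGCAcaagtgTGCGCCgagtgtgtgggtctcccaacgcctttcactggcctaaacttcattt
rpl-35: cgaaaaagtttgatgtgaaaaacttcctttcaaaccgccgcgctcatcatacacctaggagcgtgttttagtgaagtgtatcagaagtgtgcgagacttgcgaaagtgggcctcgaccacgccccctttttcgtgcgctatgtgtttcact
The runs are chrIII:1619049-1619199, minus strand; chrIII:3867501-3867651, plus strand; and chrIII:7854613-7854763, plus strand. The words searched cover few of their letters: the rpl-3 run holds GACGCA and GGCGCA and the others none of the 4.

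The peak 195 bp upstream of Y22D7AL.10 had a signal of 1146 (557 and 592). The next, 62 bp upstream of tasp-1, whose product is related to the protease taspase, had 1135 (501.4 and 629.5). Genes for proteins of the large ribosomal subunit followed, rpl-3 with 726 (351 and 381) at 278 bp upstream and rpl-35 with 711 (284 and 424) at 446 bp. The other strong members were at cdc-48.1, which encodes a p97-type ATPase that unfolds ubiquitinated proteins (456; 209.6 and 247), mog-4, an RNA helicase gene of splicing and germline sex determination (432; 179.9 and 247), and rps-28, a gene of the small ribosomal subunit (402; 161 and 234). Replicate 2 had the higher signal at 11 of these 12 members, with K08F11.1 as the exception.

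The members come from a list chosen for ranks that match between these 2 replicates, so how closely the replicates follow each other across members is partly set by that choice and is given as a description. The conservative signals ran from 2.09 to 1433, with quartiles of 70.05 and 134. In the ranked lists of both replicates 378 of the 383 had an overlapping peak, and across these the signals had a Spearman's rho of 0.698 and a Pearson's r of 0.880 on the log2 scale, a description over peaks that share 2 libraries. The signal of replicate 2 was higher at 273 of the 378, by a median factor of 1.16 with quartiles of 0.987 and 1.41. In the replicates' own thresholded lists, 149 members were found in both (38.9%, 34.2 to 43.9), 50 in that of replicate 1 alone, 59 in that of replicate 2 alone and 125 in neither (32.6%, 28.1 to 37.5). By the same rule, the own list of replicate 1 gave 200 such peaks at 193 genes (1.12% of the autosomal genes) and that of replicate 2 gave 226 at 220 genes (1.28%).

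Presence in both own lists went with signal. With members split by signal into 4 groups of equal size, 94 of the 96 strongest were in both own lists, against 46 of 96, 2 of 95 and 7 of 96 in the following groups. Without the second rows described below, which carry the replicate peaks of a stronger row, and with the rest split anew, the shares were 97.7%, 58.6%, 6.98% and 0 of 87. The strongest members in neither list were at CC8.2 (94.3; 43.6 and 48.5), npr-23, a gene of the neuropeptide receptor family (91.5; 36.9 and 52.03), ndx-6 (90.7; 34.3 and 53.7) and ZK6.8 (90.2; 44.9 and 44.2). Summits were close in both replicates: leaving out the rows described next, they lay a median of 23 bp apart, and 268 of 344 (77.9%, 73.2 to 82.0) lay within 50 bp.

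A set of weak members were second rows of stronger peaks. For 36 of the 383 (9.40%, 6.87 to 12.7) the intervals recorded for both replicates in the joint ranked list were those of another row of higher signal. Of the 36, 35 had a signal under 50, with a median of 14.1, while none of the other 347 members was under 51.1. The summit of the stronger row was 199 to 495 bp away, with a median of 202 bp, and 31 of the 36 had the same gene. These rows passed the IDR threshold on replicate peaks that also belong to the stronger row, and they are not separate evidence for a site. Such rows were 9.62% (7.46 to 12.3) of autosomal peaks with no TSS in reach and 2.42% (0.826 to 6.87) of those that reached more than 1 gene. The 3 members of lowest signal, at F18E3.13 (2.58), cacn-1 (2.40) and alh-1 (2.09), were all of this kind. Without the 36 the members numbered 347 at 338 genes, their median signal was 93.3, and 142 of them (40.9%, 35.9 to 46.2) were in both own lists.

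**Figure D2:**
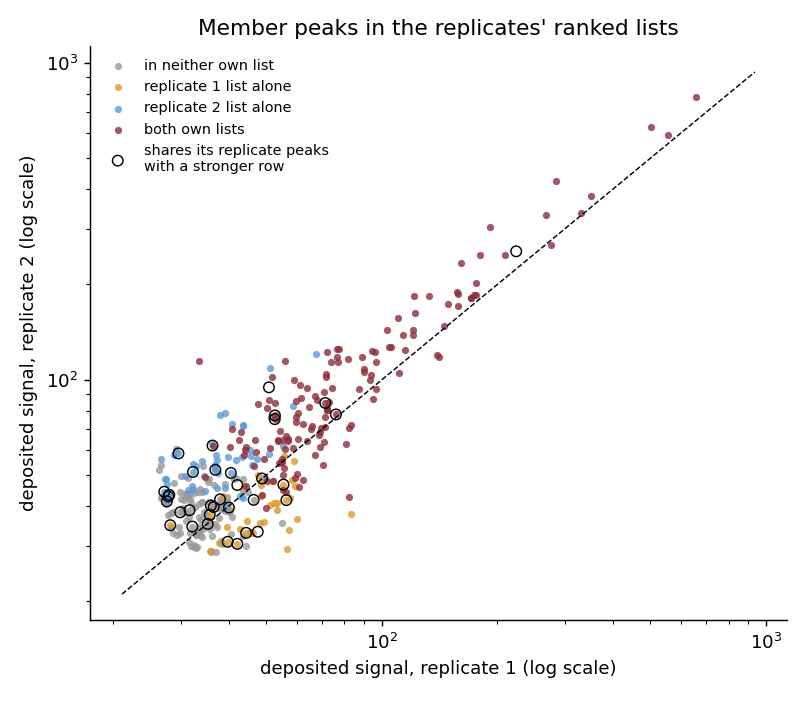
Deposited signal of each member's overlapping peak in the ranked list of replicate 1 (horizontal) and replicate 2 (vertical), both on log scales, for the 378 members found in both. Colours give the own thresholded lists that hold the peak, open circles mark rows that share their replicate peaks with a stronger row, and most points lie above the dashed line of equal signal, as 273 of 378 do.

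Most genes had 1 member peak. With every row counted, 37 of the 343 genes had 2 or more member peaks and 3 had 3 of them, but without the second rows only 8 of 338 had more than 1. At lgg-2, a gene of the autophagy protein LC3 family, the peaks were 337 bp upstream (199.5; 77.4 and 126) and 372 bp downstream of TSSs (106; 83.1 and 37.9), and the replicates ranked the latter differently. The kinase gene mnk-1 had peaks at different TSSs of the gene, 77 bp (91.1) and 19 bp (77.0) upstream, both in the list of replicate 1 alone. The kinase gene mak-1 had 3, with signals of 74.2, 65.7 and 58.4.

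The summits lay on the upstream side of the TSS. Of 381 members not at a TSS itself, 306 were upstream (80.3%, 76.0 to 84.0) and 75 downstream, which differed from equal sides (two-sided exact binomial test, p = 3.25e-34). Of the 18.6 Mb of autosomal sequence that meets the rule, 47.4% is upstream. The median summit was 167 bp upstream, with quartiles at 284 and 37 bp upstream, and 251 members (65.5%, 60.6 to 70.1) lay 50 to 400 bp upstream. The densest stretch was 150 to 200 bp upstream, with 52 members or 57.6 per Mb, against 2.05 per Mb at 250 to 300 bp downstream. In the replicates' own lists the upstream shares were 89% (83.9 to 92.6) for replicate 1 and 88.5% (83.7 to 92.0) for replicate 2, and without second rows the share was 82.9% (78.6 to 86.5).

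The side went with signal. Without second rows, 82 of 87 members of the strongest group were upstream (94.3%, 87.2 to 97.5), then 89.7% (81.5 to 94.5), 75.6% (65.5 to 83.4) and 71.8% (61.4 to 80.2) in the following groups, and the median summit moved from 220 bp upstream in the strongest to 133 bp in the weakest. With second rows counted, upstream members had a median signal of 94.7 and downstream members 71.9. Without them the medians were 100.2 and 79.0. In both own lists were 138 of the 306 upstream members (45.1%, 39.6 to 50.7) and 11 of the 75 downstream (14.7%, 8.39 to 24.4), second rows included. Without second rows these were 134 of 286 (46.9%) and 8 of 59 (13.6%).

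**Figure D3:**
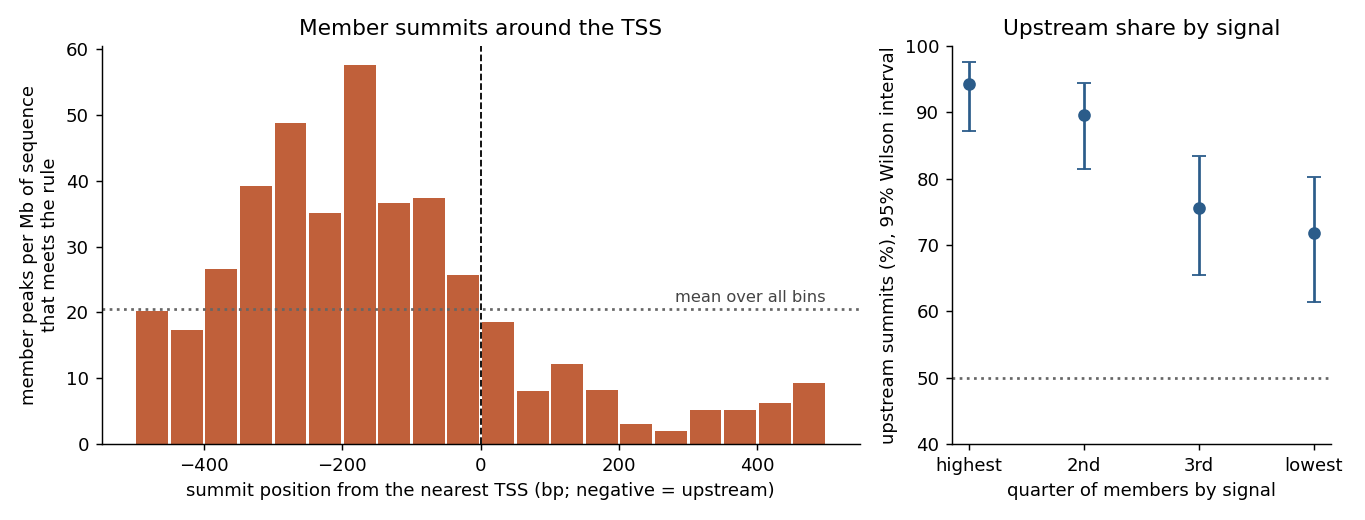
Left, member peaks per Mb of autosomal sequence that meets the rule (vertical) by position of the summit from the nearest TSS (horizontal, bp, 50 bp bins), with the mean over all bins dotted. Right, share of members upstream (%, with 95% Wilson intervals) in 4 groups by signal, without second rows, falling from 94.3% to 71.8%.

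Upstream summits were rare in exons. Of the 306 upstream members, 250 lay between genes (81.7%, 77.0 to 85.6, against 64.9% of the upstream bases that meet the rule), 50 in introns (16.3%, 12.6 to 20.9, against 20.5%), 3 in coding exons (0.980%, 0.334 to 2.84, against 7.54%) and 3 in UTRs (0.980%, against 7.05%). Downstream, 24 of 75 lay in coding exons (32.0%, 22.5 to 43.2, against 50.6% of bases), 22 in introns (29.3%, 20.2 to 40.4, against 38.8%) and 27 in UTRs (36.0%, 26.1 to 47.3, against 9.22%). The member genes had a median length of 2684 bp against 1964 bp for all autosomal coding genes, and 49.9% (44.6 to 55.1) had more than 1 annotated TSS against 26.4%, which gives such genes more sequence that meets the rule. Their median gap to the upstream gene, 1138 bp, was close to the 1020 bp of all, and 51.3% (46.04 to 56.6) had that neighbour on the same strand against 54.4%. A non-coding RNA gene started within 500 bp of 86 members (22.5%, 18.6 to 26.9), among them 16 near a tRNA gene and 15 near a snoRNA gene, so for these the coding gene was not the only gene in reach. The members' share was below the 30.3% (27.9 to 32.8) of the whole conservative list and the 31.9% (28.5 to 35.5) of the other autosomal peaks.

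Just inside the 500 bp limit were the members at pkc-1 (500 bp upstream, 4.59), ZK1248.17 (499 bp downstream, 11.8), B0205.9 (494 bp upstream, 77.5) and lin-28, a gene of developmental timing (487 bp upstream, 72.6), of which the first pair were second rows. Just outside were F07F6.8 (504 bp upstream, 70.6), vps-39 (505 bp, 725), K12H4.5 (507 bp, 108) and Y42G9A.2 (507 bp downstream, 65.4).

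Genes for ribosomal proteins, chaperones and nuclear transport were among those that held member peaks at a share above the 1.99% of all autosomal coding genes. In 11 of 35 gene lists, chosen by symbol with earlier results of these data known, the lower bound of the 95% Wilson interval was above 1.99%, and in 2, chemoreceptors and F-box and MATH-BTB genes, the upper bound was below it. No test of a list was made. In at least 1 list were 90 of the 343 member genes and 4104 of the 17242 autosomal coding genes. Genes entered the lists by symbol, and 71.4% of member genes had a genetic name against 55.4% of all autosomal coding genes. The 1.99% covers named and unnamed genes together, and the lists were not set against named genes alone. Any promoter peak, shared ones included, reached 3.37% of the genes.

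Of 80 autosomal genes for cytosolic ribosomal proteins, 11 were the single gene of a member (13.8%, 7.85 to 23.0), and 7 of the 11 peaks were in both own lists. They were led by rpl-3 (726), rpl-35 (711), rps-28 (402), rps-1 (322; 158 and 171) and rps-24 (260.1; 110.4 and 157), and the weakest was rpl-23 (66.7; 36.2 and 32.1). All 11 lay upstream, and 10 of them 262 to 450 bp from the TSS, where rpl-24.2 at 158 bp was the exception; over all members 154 of 383 (40.2%, 35.4 to 45.2) lay beyond 250 bp. With the limit set at 250 bp the list accordingly fell to 2.50% of its genes. The rps-24 peak lay on one of the repeats described above. Translation factors had 3 of 38 (7.89%, 2.72 to 20.8): iff-2, which encodes eIF5A (320.03; 149 and 173), and the eIF3 subunit genes eif-3.C (169; 74.1 and 94.3) and eif-3.B (112; 55.6 and 52.5), each in both own lists. The mitochondrial ribosome had 1 of 70 (1.43%, 0.253 to 7.66) and tRNA synthetases 1 of 32 (3.13%, 0.554 to 15.7).

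Chaperone genes had 7 of 66 (10.6%, 5.23 to 20.3). The Hsp70 gene hsp-1 led (221; 94.5 and 123), followed by the DnaJ genes dnj-9 (204; 88.8 and 118) and dnj-13 (197; 76.6 and 118) and the calreticulin gene crt-1 (117; 58.8 and 61.1). These 4 were in both own lists, while dnj-12 (4.56) was a second row. Ubiquitin and its conjugation had 4 of 60 (6.67%, 2.62 to 15.9), ubc-3, ubc-25, ubc-9 and the polyubiquitin gene ubq-1, with signals of 65.3 to 108 at the leading rows. None was in both own lists, and by the same rule the own list of replicate 1 gave 0 of 60 and that of replicate 2 gave 4. The proteasome and CDC-48 list had 2 of 47 (4.26%, 1.17 to 14.2), cdc-48.1 and rpn-11 (103; 46.1 and 53.7).

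In the nucleus, the pore and transport list had 4 of 41 (9.76%, 3.86 to 22.5): npp-18, npp-8 (237; 105 and 127), the importin gene imb-3 (216; 95.8 and 122) and the RNA export gene nxt-1 (73.0; 29.9 and 42.1). Chromatin modifiers had 5 of 67 (7.46%, 3.23 to 16.3), led by set-25 (258; 121 and 138) and swsn-3, a SWI/SNF subunit gene (137; 59.8 and 76.2). Splicing had 4 of 55 (7.27%, 2.86 to 17.3), with mog-4 and the Sm protein gene snr-4 (188; 95.2 and 87.1) first. RNA polymerase and general factors had 4 of 65 (6.15%, 2.42 to 14.8), led by the polymerase II subunit gene rpb-11 (152; 72.1 and 80.1), but the own list of replicate 1 gave 1 (1.54%). DNA replication and cell cycle had 5 of 89 (5.62%, 2.42 to 12.5), with cdc-48.1, which stands in both this list and that of the proteasome, and pcn-1, the gene of the replication clamp PCNA (156; 83.2 and 71.9). Another of the 5, mcm-3AP, entered the list by its symbol, and its part in replication was not checked. Of only 10 genes of the DREAM complex and synMuvB class, a repressor of cell cycle genes, 2 were members (20%, 5.67 to 50.98): lin-9 (168; 55.9 and 114.8) and efl-1, an E2F gene (65.1; 33.8 and 36.2). Histones had 1 of 76, his-37 (345; 171 and 182), a gene with near-identical copies, though its summit window held no repeated word. Any promoter peak, shared ones included, reached 8 of the 76 histone genes. DNA repair and meiosis had 1 of 47, brc-1 (138; 68.8 and 67.2). Repeated words made up 79.7% of the summit window at npp-18, 100% at set-25, 63.3% at mog-4 and 81.25% at mcm-3AP of the replication list. The npp-18 and set-25 peaks are the pair of copies described above, so the pore and chromatin lists are led by the same repeat. Such peaks were counted like any other, so part of the shares of the pore, chromatin, splicing and replication lists rests on repeated sequence.

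Vesicle traffic had 6 of 92 (6.52%, 3.02 to 13.5). It was led by sec-61.G, a subunit of the protein channel of the endoplasmic reticulum (302; 121 and 184), and vps-25 (135; 65.3 and 70.1). The member at vps-32.1 (19.9) was a second row of the peak at icd-1, and without it the list had 5. The respiratory chain had 3 of 65 (4.62%, 1.58 to 12.7), the complex IV genes cox-5A (362; 174 and 185) and cox-5B (147; 67.8 and 86.3) and the complex I gene nduf-11 (96.2; 47.6 and 50.01), and mitochondrial import 1 of 15, tomm-20 (119.6; 56.0 and 60.5). The cytoskeleton list had 2 of 49, the tubulin genes tba-2 (98.7) and tba-7 (81.0).

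Transcription factors other than nuclear receptors had 5 of 177 (2.82%, 1.21 to 6.44), an interval that includes 1.99%. These were ztf-7 (253; 139.7 and 120.0), dmd-7 (138; 47.5 and 84.0), zip-2 (114; 43.4 and 71.8), xbp-1, a regulator of the unfolded protein response (100.03; 50.3 and 47.8), and klf-1 (80.6; 36.3 and 40.7). Nuclear receptors had 2 of 246 (0.813%, 0.223 to 2.92) and small RNA pathways 1 of 48, ego-1 (157; 61.5 and 87.7).

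Large families of environmental and sensory genes held few members. The chemoreceptor pattern had 6 of 1331 (0.451%, 0.207 to 0.980), 1 of which, srp-7, is a serpin gene that the symbol pattern took in; the strongest was srh-2 (156; 72.1 and 80.5). F-box and MATH-BTB genes had 2 of 378 (0.529%, 0.145 to 1.91), C-type lectins 1 of 237 (0.422%, 0.0745 to 2.35), and cytochrome P450s and transferases 1 of 171 (0.585%, 0.103 to 3.24). Cuticle collagens had 3 of 141 (2.13%, 0.726 to 6.07), at col-72, col-85 and col-124, all 367 to 451 bp downstream of the TSS. No gene was a member among 106 neuropeptide and insulin genes (upper bound 3.50%), 26 of glycolysis and the citric acid cycle (12.9%), 17 of the V-ATPase (18.4%), 24 neuron markers (13.8%) and 17 muscle markers (18.4%). Germline and sperm markers had 1 of 83 (spe-54, 52.5), intestine markers 1 of 24 (asp-1, 76.5) and epidermis markers 1 of 23 (wrt-1, 95.3). Whole worms hold all of these tissues, and no tissue was told apart by these counts.

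**Figure D4:**
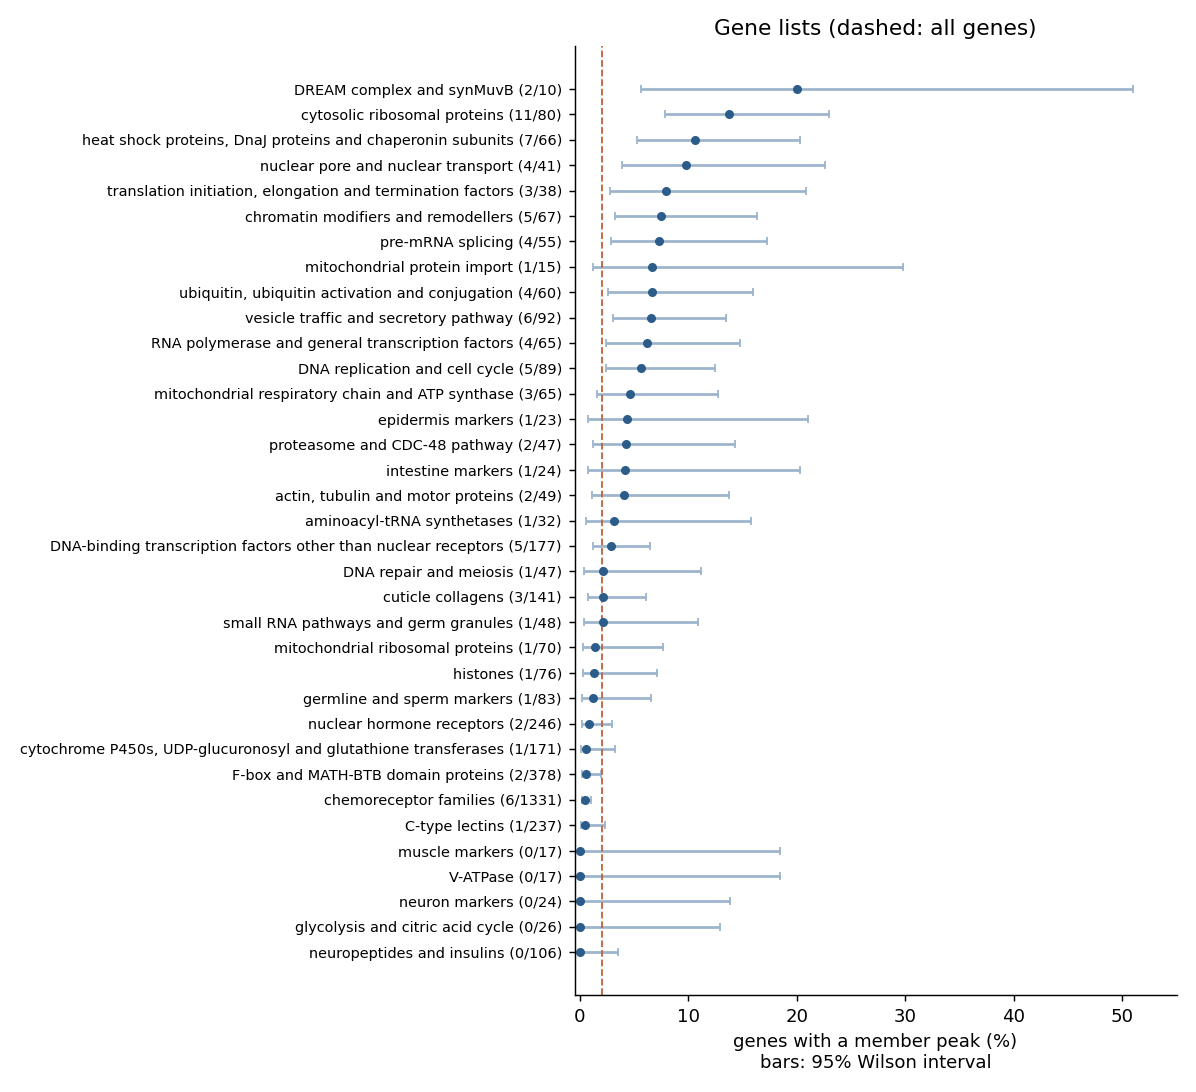
Share of autosomal genes in each of 35 lists that are the single gene of a member peak (horizontal, %), with 95% Wilson intervals and the counts beside each name. The dashed line is the 1.99% of all autosomal coding genes, and the intervals of 11 lists lie wholly to its right.

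Summits were richer in G and C than their surroundings, and some short words were more frequent there. The summit and the 50 bases on each side had a median G+C content of 48.5%, against 36.6% in windows of that size centred 250 bp toward the gene, 34.7% in that 250 bp away from it and 33.7% at all autosomal promoters, and 277 of 383 members were higher at the summit than in both flanks. At the summits of the other peak classes the median G+C content was 46.5% to 52.5%, and over the whole list 48.5%. Words were searched on both strands and compared with each flank by a two-sided exact McNemar test within peaks. Of 26 tests of 13 chosen words, 61.5% passed an adjusted p of 0.05, and 7 words differed from both flanks in 1 direction.

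ACGCAG stood at 65 summits (16.97%, 13.5 to 21.1), against 2.35% of flanks toward the gene and 4.96% away from it (exact McNemar tests, adjusted p = 2.96e-11 and 9.82e-07), and in 3.34% of 25199 promoter windows. Its longer form AGACGCAG was at 10.2% of summits against 1.31% and 1.83% of flanks. GAGAGA, a purine repeat of the kind bound by GAGA-type factors in flies, was at 87 summits (22.7%, 18.8 to 27.2), against 10.4% and 8.62% of flanks (exact McNemar tests, adjusted p = 1.09e-05 and 1.20e-07) and 8.41% of promoter windows. Both words stood together at 21 summits and at least 1 of them at 131 (34.2%, 29.6 to 39.1). GGGCGG was at 9.14% against 1.57% and 2.09%. Rarer at the summit were AAAAAT (27.4% against 48.6% and 44.9%), TTTTTT (22.7% against 35.5% and 39.9%) and TTTCAG, the letters of the worm splice acceptor (7.31% against 26.4% and 19.3%). CCAAT and TATAAA were rarer than in the flank away from the gene (exact McNemar tests, adjusted p = 0.0251 and 0.0130) but not past the threshold toward it (0.550 and 0.252). The GATA-factor word TGATAA, the CRE-type word TGACGT, the heat shock word GAANNTTC (N is any base) and the cell cycle word TTTGAA passed against neither flank, with adjusted p from 0.0608 to 1 by the same exact test.

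The following runs show such words at a summit, for strong members with under 50% repeated words (40.6% at cnk-1, none at sec-61.G), on the strand of the gene and with the matches of that word in capitals (AGACGCAG for sec-61.G, GAGAGA for cnk-1).
sec-61.G: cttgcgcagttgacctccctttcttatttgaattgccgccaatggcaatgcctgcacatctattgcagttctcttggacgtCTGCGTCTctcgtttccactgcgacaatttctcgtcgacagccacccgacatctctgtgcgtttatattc
cnk-1: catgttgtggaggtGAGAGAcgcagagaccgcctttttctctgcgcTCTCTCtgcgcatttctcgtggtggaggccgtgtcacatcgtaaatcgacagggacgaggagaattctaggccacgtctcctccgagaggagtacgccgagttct
They are chrV:10897292-10897442, minus strand, and chrIII:10270878-10271028, plus strand. Both capitalised matches at cnk-1 lie in its repeated part, chrIII:10270883-10270956. That sequence was found in full or in part at 5 places, the member at B0205.9 among them. AGACGCAG and a GAGAGA match overlap on the same strand in both runs, but at cnk-1 that stretch lies more than 50 bases from the summit and so outside the window in which words were counted; the GAGAGA match counted there is the TCTCTC nearer the centre. The sec-61.G peak (302) lay 224 bp upstream of its TSS and the peak at cnk-1, a gene of the Ras pathway (212), lay 304 bp upstream; both were in both own lists.

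A scan of all 2080 words of 6 letters, added after the chosen words, found mostly GC-rich words among those more frequent at the summit and AT-rich words among those less frequent. By exact McNemar tests adjusted over all words and both flanks, 123 words (5.91%) were more frequent at the summit than in both flanks and 82 (3.94%) less frequent. Of the 123, 82.1% had 4 or more G or C letters, as did 34.6% of all words, and 28 held GCGC or CGCG, of 44 such words in all. Among the words more frequent at the summit, the lowest adjusted p were those of CGCGCA, at 14.4% of summits against 0.522% and 1.57% of flanks, and GGCGCA, at 13.8% against 1.31% and 1.57% (exact McNemar tests, highest adjusted p of either flank 6.00e-09 for both). GACGCA, which overlaps ACGCAG, was at 19.8% against 3.66% and 5.48%. Of the 82, 81 had 2 or fewer G or C letters, led by AAAATT at 16.7% of summits against 39.2% and 42.3% (exact McNemar tests, highest adjusted p 5.46e-09). Words that overlap are not independent, and base composition differs between summit and flanks, so single words cannot be told apart from composition by these tests. The tests of the scan and of the chosen words also counted second rows and copies of repeats as separate windows. Of the 123 words, 121 were again more frequent without second rows, and 102 without members in repeated sequence.

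The words differed in how they went with signal. GACGCA stood at 27 of the 96 strongest members (28.1%) and then at 24.0%, 17.9% and 9.38% of the following groups. CGCGCA or GGCGCA was at 37.5% of the strongest and at 16.7%, 29.5% and 15.6% of the others. All 8 members on the repeated sequence described first, with signals from 171, fell in the strongest group, whose lowest signal was 135. The npp-18 and unc-85 runs hold GGCGCA in its shared part. Copies of 1 repeat thus count as separate peaks here, and this split by signal was not redone without repeats. GAGAGA showed no such order, at 19.8%, 22.9%, 29.5% and 18.8%. Members in both own lists and in neither held GAGAGA at 22.1% (16.2 to 29.5) and 23.2% (16.7 to 31.3), while for ACGCAG the shares were 22.1% (16.2 to 29.5) and 12% (7.41 to 18.9), with intervals that overlap. Second rows held ACGCAG once in 36 and AAAAAT 16 times in 36 (44.4%).

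**Figure D5:**
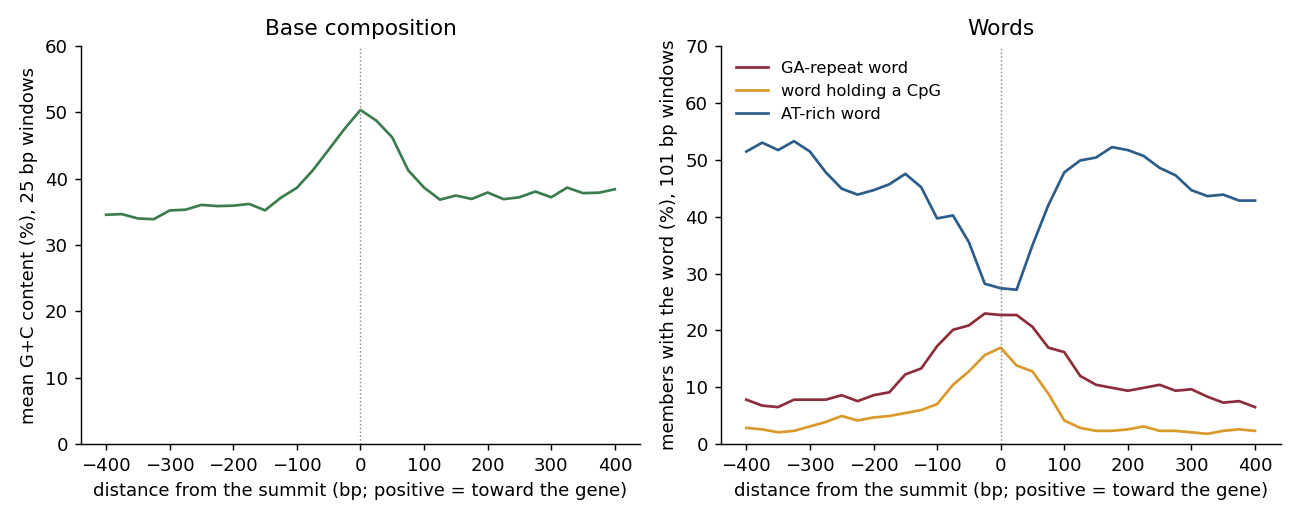
Left, mean G+C content (%) of 25 bp windows by distance from the member summits (bp), peaking at 50.3% at the summit. Right, share of the 383 members (%) with GAGAGA (GA-repeat word), ACGCAG (word holding a CpG) or AAAAAT (AT-rich word) in windows of 50 bases on each side, by distance from the summit.

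The members were spread over all 5 autosomes, with 92 on chromosome I, 85 on II, 76 on III, 51 on IV and 79 on V. As a share of each chromosome's coding genes, member genes were 2.68%, 2.23%, 2.65%, 1.49% and 1.40%. On V, 62 of 79 members (78.5%, 68.2 to 86.1) lay in the central 50% of the chromosome against 52.5% of its genes, and on the other 4 autosomes the member intervals included the share of the genes. The other autosomal peaks on V were placed alike, with 76.6% in the centre.

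The members differed from the other autosomal classes in no single direction. Peaks that reached more than 1 gene had a median signal of 114 and 51.6% (42.9 to 60.2) in both own lists, members 89.3 and 38.9%, and peaks with no TSS in reach 83.2 and 35.3% (31.5 to 39.3). GAGAGA was at 15.3% (10.03 to 22.7) of summits that reached more than 1 gene, 22.7% of members and 27.1% (23.6 to 30.9) of peaks with no TSS in reach, and GGGCGG at 12.9% (8.10 to 19.9), 9.14% (6.64 to 12.4) and 5.42% (3.84 to 7.59). ACGCAG was at 12.9% (8.10 to 19.9), 16.97% (13.5 to 21.1) and 16.3% (13.5 to 19.5) in that order, and AAAAAT at 24.2% (17.5 to 32.4), 27.4% (23.2 to 32.1) and 19.4% (16.4 to 22.8), so for both of these words the members had the highest share of the 3 classes. Peaks at promoters on X held ACGCAG at 27.1% (18.1 to 38.5) and GAGAGA at 32.9% (23.0 to 44.5) of 70 summits, and their median signal was 92.0. These are values side by side, and no difference between classes was tested.

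Among members in both own lists the replicates differed most at Y18D10A.4, at 33.5 and 114, a log2 ratio of 1.77. Next were lin-9 (55.9 and 114.8, 1.04) and sco-1, a gene of copper delivery to cytochrome oxidase (51.8 and 102, 0.97). In the other direction were rpl-41.2 (82.3 and 42.7, -0.95), F44E7.5 (60.99 and 45.9, -0.41) and D2030.2 (70.3 and 53.8, -0.39). With 1 value per replicate, no error of these ratios can be given.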

How the data were processed

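Peak lists from 2 biological replicates of 1 group were analysed. Per the deposited file descriptions, the authors derived them from filtered alignments on ce11 with a further input, for each replicate and for both together, ranked or thresholded on the IDR. The deposited signal value of each peak is the peak caller's, and its scale is not stated. In the deposited lists the score is a rescaled IDR, highest for the best-matched ranks, and it was not printed. No source used here names the aligner, the peak caller or the handling of reads with several matches, and the files hold no read counts, so the depth is unknown. No column of per-sample values was left out.

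Members were found from TSSs of protein-coding transcripts in Ensembl release 115 (29304 positions, 19973 genes), and 95% Wilson intervals treat peaks or genes as independent and cover counting error only. A replicate's peak was matched by an overlap of at least 1 bp. Words were counted up to 50 bases to each side of the summit with flanks centred 250 bp away, tested by the exact McNemar test and adjusted by the Benjamini-Hochberg method over 26 tests, or over all words and both flanks in the scan. Scripts ran in Python 3.11.15 with SciPy 1.17.1 and statsmodels 0.14.6, and statistics were tested on simulated data. Genes named are the 12 members of highest signal, up to 4 leading genes of each list, those nearest the limit, those with several peaks, and the extremes of signal and replicate ratio; genes of lists beyond the leading 4, and the repeat families, were chosen after their values were seen. The members, lists and words were chosen with earlier results of these data known. Alternatives covered the window, the TSS set, the list, the signal, each replicate, non-coding genes, second rows and repeats.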

Additional observations from a re-analysis of the deposited data

How the results depend on the processing

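The upstream side of the summits, and its place past the threshold, held under all alternatives run. Single gene lists and words did not all keep their call, as given below. The upstream share ran from 76.7% (limit 1000 bp) to 91.0% (the higher-signal part of the list). The median log2 ratio of the replicates ran from 0.17 to 0.24, the lists with a lower bound above the share of all genes numbered 8 to 12, and the chosen words past the threshold against both flanks 6 to 8. In the higher-signal part of the list there were 201 members, 69.7% of them in both own lists, and the word scan called 75 words more frequent and 50 less frequent. With 61 bp windows it called 79 more frequent. From the list of 1 replicate alone the members numbered 200 to 226. The word scan with all its settings, and for every result the settings without second rows and without repeated sequence, were chosen after seeing the data. No result past its threshold changed sign. Of the words not past it, CCAAT against the flank toward the gene ran from -7.57 to 1.42 percentage points, GAANNTTC from -4 to 0.26 there and from -6 to 0.34 away from it, and TGACGT from -0.51 to 3.13 and from -0.50 to 3.39. From the list of replicate 1 alone the ubiquitin list fell to 0% and RNA polymerase to 1.54%, and without members near non-coding genes chaperones fell to 4.55%. Of single gene lists and words, 606 values kept their call, 46 moved, 14 passed the threshold and 6 lost it; the cause was not tested. No paired analysis was possible because there is 1 group. Precision is limited by 2 replicates and an unknown depth, weak members rest on ranks, and the signals of repeats rest on unknown read placement.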
